A study of Homo sapiens with 16 samples.

Results

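The E2F transcription factors and the pocket proteins that bind them were followed through 16 RNA sequencing libraries of human lung adenocarcinoma cells. The 10 genes were taken by name, as 10 of the 60448 gene identifiers measured: the activator E2Fs E2F1, E2F2 and E2F3, the canonical repressors E2F4 and E2F5, the atypical repressors E2F7 and E2F8, and the pocket proteins RB1, RBL1 (p107) and RBL2 (p130). The cells were A549, an established lung adenocarcinoma line, and A549/cDDP, its cisplatin-resistant derivative, both labelled as unsynchronized, mixed populations. The study asked how the resistant line and its parent respond to cisplatin, and what knockdown of the long noncoding RNA SCAT7 does in the resistant line with and without the drug.

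There were 8 groups of 2 libraries. A549 and A549/cDDP without transfection were each given cisplatin at a labelled 15 mM, or its solvent, for 24 h. The unit of that dose is as labelled, was not checked, and may be meant as micromolar. A549/cDDP was also transfected with 12 pmol of a control gapmer or of a gapmer against SCAT7 and collected 48 h later, the last 24 h in solvent or cisplatin. A gapmer is a short antisense DNA strand with modified ends, and RNase H cuts the RNA it pairs with. Wells were seeded with 35000 cells. Every A549/cDDP group, solvent included, came from cells kept in medium with a labelled 15 mM cisplatin, so solvent in this line is not a state without earlier drug. Neither line was described as a single clone, and A549 itself was not transfected. The labels give the second gapmer a code, and its target was taken from the series' design text.

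E2F proteins bind DNA as dimers with DP proteins and set the transcription of genes for DNA replication and cell cycle entry. In resting cells, pocket proteins cover the activation domain of E2Fs. Cyclin D and cyclin E kinases phosphorylate the pocket proteins in G1, the E2Fs are released, and inhibitors such as p21 (CDKN1A) hold those kinases back. E2F1, E2F2, E2F8 and RBL1 are themselves textbook E2F targets, E2F7 is in addition a known target of p53, and E2F7 and E2F8 repress without DP or pocket proteins.

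Levels are in FPKM, that is, fragments per kilobase of gene and per library total, so levels of different genes can be set beside each other. Changes are differences of log2(FPKM + 0.5), which understates the change of low genes. They were tested with limma over the 17198 genes whose mean reached 0.5 FPKM, two-sided, with Benjamini-Hochberg adjustment. A gene was called at an adjusted p below 0.05, and verbs such as rose and fell mark called genes. All 10 members passed the filter on low values. The labels do not say that the 2 libraries of a group came from separate cultures, so the p-values measure only the spread between these libraries.

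Depth recovered from the low FPKM values ran from 31330000 to 43110000 fragments per library. The 4 control gapmer libraries were the deepest, and the 4 SCAT7 gapmer libraries were among the 5 shallowest, with untransfected A549/cDDP solvent replicate 2. Correlations between replicates across genes were 0.991 to 0.996. SCAT7 was read as ELF3-AS1, which stood at 3.06 ± 0.716 FPKM (SD, n = 2) with the control gapmer and at 0.716 ± 0.171 with the SCAT7 gapmer in solvent (log2 change -1.54, limma adjusted p = 7.5e-06). With the drug the same groups had 3.48 ± 0.351 and 1.93 ± 0.346 FPKM, a smaller difference of -0.71 (adjusted p = 0.0036), and the SCAT7 gapmer results in cisplatin are to be read with it. CDKN1A, which DNA damage induces through p53, rose by 4.26 with cisplatin in A549 (limma adjusted p = 7.8e-17). Of 6 epithelial markers KRT7 was highest, at 2735 to 4179 FPKM. KRT8 stood at 1546 to 2782, KRT18 at 599 to 1437 and KRT19 at 90.5 to 251. CDH1, at 2.02 to 14.5, and EPCAM, at 0.584 to 3.81, were low, so sums over the 6 mostly reflect keratins. Of 4 lung epithelium markers the surfactant genes SFTPA1, SFTPB and SFTPC, which alveolar type II cells express, were at most 0.194 FPKM and NKX2-1 at most 1.34. Of 8 markers of other lineages, 7 were at most 0.59 FPKM in every library and the collagen gene COL1A1 stood at 7.2 to 52.7. In bulk RNA, fewer cells of a cell cycle phase and less RNA per cell cannot be told apart.

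Sequences just before the start site are shown for E2F1, E2F2 and RBL1, which fell together with cisplatin in A549, and for E2F7, which rose there. They are 100 bases 5′ of the RefSeq start on GRCh38.p14, 5′ to 3′ on the gene's strand. The 4 words TTTGGCGC, TTTCCCGC, TTTCGCGC and TTTGCCGC, 8 letters each and of the E2F type, were searched on both strands, and matches are in capitals. No match overlapped another in these windows.
E2F1 (chr20:33686386-33686485, minus strand): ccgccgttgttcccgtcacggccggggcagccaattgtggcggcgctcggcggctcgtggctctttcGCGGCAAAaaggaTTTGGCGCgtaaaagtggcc
E2F2 (chr1:23531234-23531333, minus strand): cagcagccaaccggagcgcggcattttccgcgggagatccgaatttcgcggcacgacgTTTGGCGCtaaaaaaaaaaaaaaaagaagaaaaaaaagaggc
RBL1 (chr20:37095998-37096097, minus strand): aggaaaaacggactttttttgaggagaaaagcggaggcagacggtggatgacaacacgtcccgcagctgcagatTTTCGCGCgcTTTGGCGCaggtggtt
E2F7 (chr12:77065570-77065669, minus strand): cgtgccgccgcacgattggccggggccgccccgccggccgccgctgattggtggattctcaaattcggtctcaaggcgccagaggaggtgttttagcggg

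The word TTTGGCGC began 20 bases before the start in E2F1, 42 in E2F2 and 16 in RBL1. E2F1 also held TTTGCCGC on the opposite strand at 33 bases, and RBL1 held TTTCGCGC at 26. The E2F7 window held none of the 4 words, which says only that these letters are not in it. The same window of E2F4 and both windows of RBL2 held none either, and 1 of 2 windows of E2F3 held TTTCCCGC on the opposite strand at 53 bases. Over all 35116 RefSeq promoters, 1.15% held any of the words in this window and 0.259% held TTTGGCGC. Of 20 genes of a list of S phase targets found in the table, 7 held any word and 2 held TTTGGCGC. E2F5 and E2F8 were not matched in the table, and the RB1 entry lies far inside the gene, so neither is described. A match of letters is no evidence of binding.

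In A549 cells in solvent, E2F4 was the highest of the 7 E2Fs, at 83.2 ± 1.14 FPKM (SD, n = 2). E2F1 followed at 31.1 ± 0.194, and E2F2 was the lowest at 7.37 ± 0.0246. Among the pocket proteins RB1 stood at 40.9 ± 2.3, with RBL1 and RBL2 close together at 22.7 ± 0.832 and 23.3 ± 1.1. E2F7 and E2F8, at 10.3 FPKM each, were equally abundant in these untreated parental cells. In every one of the other 7 groups E2F7 was above E2F8 in both libraries.

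**Figure D1:**
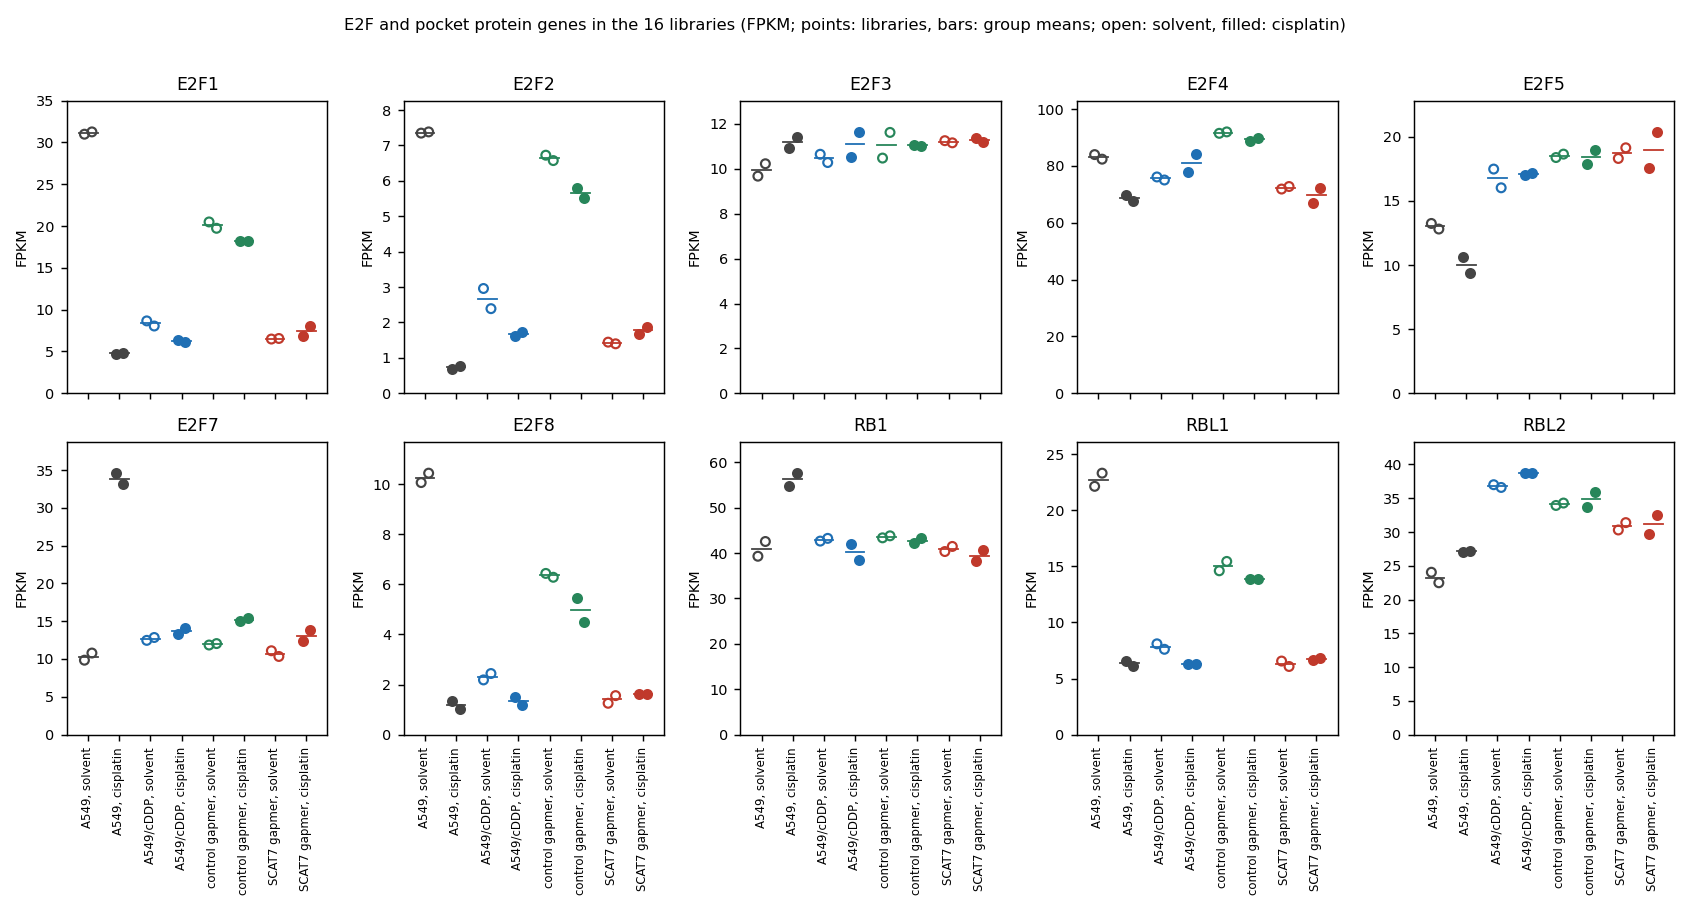
FPKM of each of the 10 genes in all 16 libraries, 1 panel per gene with its own linear axis, 1 point per library and a bar at the mean of each group of 2. E2F1, E2F2, E2F8 and RBL1 have similar profiles, highest in A549 in solvent, while E2F3 stays between 9.68 and 11.6 FPKM in every library.

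Cisplatin in A549 split the family: 2 of 3 activators, the atypical repressor E2F8 and the pocket protein RBL1 fell steeply, while E2F7 and RB1 rose. All 10 members were called, 4 higher and 6 lower, where 33.3% of all genes tested were higher and 27.1% lower. The sizes set the members apart among themselves, from -2.68 to 1.67 on the log2 scale. The median change over all genes was 0.06.

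E2F1, the activator best known for driving S phase entry, read 31 and 31.3 FPKM in solvent and 4.73 and 4.85 in cisplatin. The groups lie far apart, and the change was -2.58 (SE 0.0673, limma adjusted p = 1.38e-11). E2F2, a close relative of E2F1, read 7.35 and 7.38 FPKM in solvent and 0.679 and 0.783 in cisplatin. It fell by 2.68 (adjusted p = 2.44e-10) to the lowest level of any member in any group, which still rests on about 135 reads or more per library. E2F3, the remaining activator, did not follow them. It read 9.68 and 10.2 FPKM in solvent and 10.9 and 11.4 in cisplatin, a change of 0.16 (adjusted p = 0.0414). That small rise lost its call when any 1 of the 4 libraries was left out, with adjusted p from 0.051 to 0.211, and under median ratio scaling (0.08, adjusted p = 0.28).

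Among the repressors, the atypical pair parted. E2F7 read 9.84 and 10.8 FPKM in solvent and 34.6 and 33.1 in cisplatin, the highest level of this gene in any group. It rose by 1.67 (SE 0.064, adjusted p = 3.21e-10). E2F8, which can pair with E2F7 on DNA, read 10.1 and 10.4 FPKM in solvent and 1.33 and 1.04 in cisplatin. It fell by 2.68 (SE 0.129, adjusted p = 2.45e-09). The ratio of E2F7 to E2F8 FPKM thus went from 0.977 and 1.03 in the solvent libraries to 26 and 31.9 in the cisplatin libraries. The canonical repressors moved less. E2F4, the most abundant E2F, fell by 0.27 (adjusted p = 0.000104) from 84 and 82.4 to 69.8 and 67.8 FPKM. E2F5 fell by 0.37 (adjusted p = 0.00102) from 13.2 and 12.8 to 10.6 and 9.38 FPKM.

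The pocket proteins split as well. RBL1, which is made as cells approach S phase, read 22.1 and 23.3 FPKM in solvent and 6.61 and 6.13 in cisplatin, a fall of 1.76 (adjusted p = 1.21e-10). RB1, the founding tumour suppressor of the family, rose by 0.45 (adjusted p = 6.94e-06) from 39.3 and 42.5 to 54.9 and 57.6 FPKM. RBL2, the pocket protein typical of resting cells, rose by 0.22 (adjusted p = 0.00189) from 24 and 22.5 to 27 and 27.2 FPKM. RBL1 and RBL2 were near 1 to 1 in solvent (ratios 0.921 and 1.04) and RBL1 was below RBL2 in both cisplatin libraries (0.225 and 0.245).

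**Figure D2:**
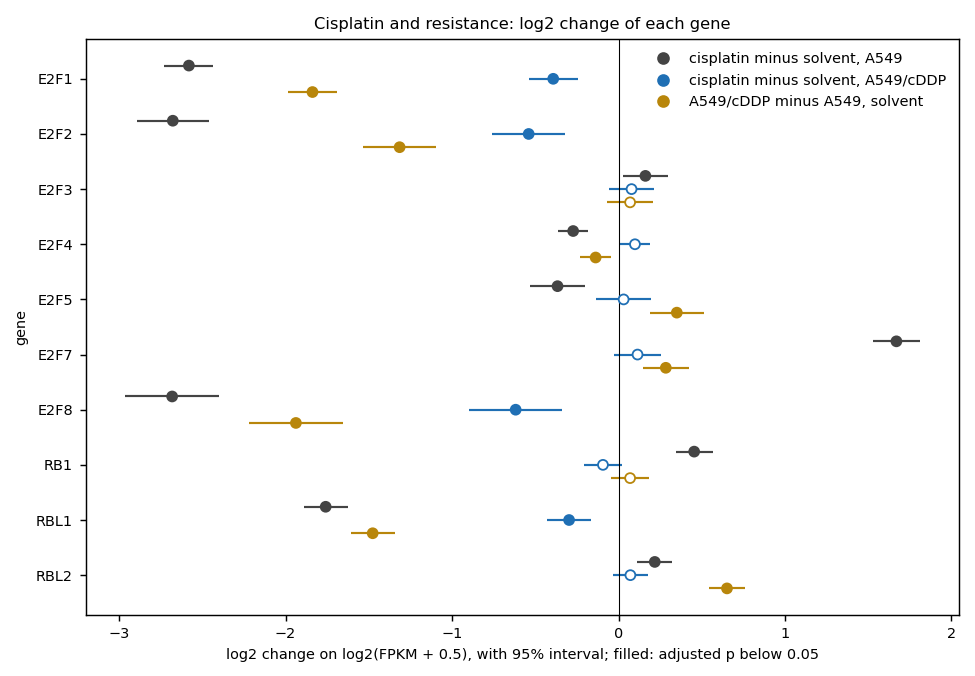
Log2 change of the 10 genes on the log2(FPKM + 0.5) scale with 95% intervals, for cisplatin in A549, cisplatin in A549/cDDP, and A549/cDDP against A549 in solvent; filled points are called. E2F1, E2F2, E2F8 and RBL1 are between -2.68 and -1.76 with cisplatin in A549 and between -0.62 and -0.30 in A549/cDDP, and E2F7 is at 1.67 and 0.11.

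The wider circuit was read from lists of partners and targets. TFDP1, the main DP partner, fell with cisplatin in A549 by 0.92 (adjusted p = 4.3e-09), from 128 and 125 to 67.2 and 65.8 FPKM. The other two of its list of 3, TFDP2 at 0.02 (adjusted p = 0.78) and E2F6 at -0.06 (adjusted p = 0.3), were not called. MYBL2 and 5 genes of the MuvB core, a scaffold that joins RBL2 and E2F4 or MYBL2, made a list of 6, of which 5 fell and 0 rose. MYBL2 had the largest change at -2.15 (adjusted p = 3.1e-10) and LIN37 was at 0.25 (adjusted p = 0.24). Of 8 genes of kinases that phosphorylate pocket proteins 4 fell and 1 rose. The S phase cyclin gene CCNE2 was at -1.94 (adjusted p = 2e-08) and CDK2 at -1.35 (adjusted p = 1.2e-10), while the rise was that of CCND3, at 0.24 (adjusted p = 0.012).

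Of 7 CDK inhibitor genes 4 were tested. CDKN1A rose and 3 fell, with CDKN2C, which inhibits CDK4 and CDK6, at -2.49 (adjusted p = 3.1e-09). CDKN2A, the gene of p16 and a frequent loss in this tumour type, was at most 0.399 FPKM in any library and 0 in the A549/cDDP libraries without the SCAT7 gapmer. Of 24 E2F target genes of S phase entry 22 fell and 1 rose, with a list median of -1.90 against 0.06 over all genes. The replication helicase gene MCM6 fell by 3.09 (adjusted p = 5.5e-14), and the 1 that rose, by 0.72 (adjusted p = 2.2e-08), was PCNA, which is also a known p53 target. Among the 6 epithelial markers 4 fell and 1 rose in the same comparison, with summed levels of 8414 to 8429 FPKM in solvent and 6750 to 6849 in cisplatin, and their part in the members' changes was not tested.

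In solvent, the resistant line stood lower for the genes that cisplatin lowered most in A549. A549/cDDP against A549 had 3 members higher and 5 lower, where 42.7% of all genes were higher and 27.5% lower. E2F1 stood at 8.66 and 8.05 FPKM in A549/cDDP against 31 and 31.3 in A549, lower by a log2 change of -1.84 (adjusted p = 1.93e-10). E2F8 was at 2.18 and 2.44 FPKM, a change of -1.94 (adjusted p = 3.96e-08). RBL1 was at 8.1 and 7.61 FPKM, a change of -1.48 (adjusted p = 4.98e-10), and E2F2 at 2.96 and 2.39, a change of -1.31 (adjusted p = 1.36e-07). For these 4 genes both A549/cDDP libraries lay below both A549 libraries, a separation that was not counted over all genes. E2F4 was lower by a small step of -0.14 (adjusted p = 0.0109), a call lost without A549 solvent replicate 1 (adjusted p = 0.065) and without A549/cDDP solvent replicate 2 (adjusted p = 0.0581).

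The resting-cell pocket protein went the other way. RBL2 read 37 and 36.6 FPKM in A549/cDDP and 24 and 22.5 in A549, higher by 0.65 (adjusted p = 1.19e-07). E2F5 was higher by 0.35 (adjusted p = 0.00116) and E2F7 by 0.28 (adjusted p = 0.00166). The median of all genes was 0.15 in this comparison, and with median ratio scaling, which set it to -0.01, E2F5 was at 0.17 (adjusted p = 0.074), E2F7 at 0.10 (adjusted p = 0.152), and the calls of higher genes went from 60.8% to 47.4% of all calls. RB1 was at 0.07 (95% interval -0.04 to 0.18) and E2F3 at 0.07 (-0.07 to 0.21), neither called. All 24 S phase targets were lower, with a median of -1.23 against 0.15 over all genes. CDKN1A was higher by 2.77 (adjusted p = 1.3e-14). Among the kinase genes CCND1 was higher by 1.18 (adjusted p = 2.6e-11) and CCND3 lower, at -1.06 (adjusted p = 4.3e-08). CCND2, hardly present in A549 at 0.0285 FPKM, was also called higher, at 1.35 FPKM in A549/cDDP. The D cyclins, the first to act on pocket proteins, were thus not all shifted one way. Of the 6 epithelial markers 5 were lower and 1 higher in A549/cDDP, with summed levels of 5555 to 5707 FPKM against 8414 to 8429 in A549. COL1A1 was higher by 1.94 and the lung lineage gene NKX2-1 by 1.67. The part of these markers in the members' differences was not tested.

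Further cisplatin in A549/cDDP moved the same 4 genes by much less. There 0 members rose and 4 fell, where 3.55% of all genes rose and 4.55% fell. E2F1 went from 8.66 and 8.05 to 6.39 and 6.09 FPKM, a change of -0.39 (SE 0.0673, adjusted p = 0.00427). E2F2 went from 2.96 and 2.39 to 1.62 and 1.74 FPKM (-0.54, adjusted p = 0.0064), and E2F8 from 2.18 and 2.44 to 1.5 and 1.17 (-0.62, adjusted p = 0.012). RBL1 went from 8.1 and 7.61 to 6.33 and 6.26 FPKM (-0.30, adjusted p = 0.0109). In all 4 the cisplatin libraries lay below the solvent libraries, and how many of all genes separate so was not counted.

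E2F7, the member that rose most in A549, read 12.5 and 12.8 FPKM in solvent and 13.4 and 14.1 in cisplatin in the resistant line. Its change was 0.11 (95% interval -0.03 to 0.25, adjusted p = 0.332). RB1 was at -0.09 (-0.21 to 0.02, adjusted p = 0.319), and E2F3, E2F4, E2F5 and RBL2 were not called either. Of the 24 S phase targets 18 fell and 0 rose, with a median of -0.32 against 0.0029 over all genes. A fit on these 4 libraries alone called none of the members, with adjusted p of 0.0722 for E2F1, 0.113 for E2F2, 0.0984 for E2F8 and 0.114 for RBL1. Leaving out 1 library ended the call of E2F2 (adjusted p = 0.066) and RBL1 (0.0925) without solvent replicate 1, of E2F8 without solvent replicate 2 (0.101) or cisplatin replicate 2 (0.115), and of RBL1 without cisplatin replicate 2 (0.071).

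The response to cisplatin was compared between the lines by the difference of their log2 changes, resistant minus parental. It was called for 8 members, 6 higher and 2 lower, where 21.5% of all genes were higher and 25.6% lower. The difference was 2.19 for E2F1 (95% interval 1.98 to 2.40, adjusted p = 4.37e-09) and 2.14 for E2F2 (1.83 to 2.45, adjusted p = 1.26e-07). It was 2.06 for E2F8 (1.67 to 2.46) and 1.46 for RBL1 (1.28 to 1.65). In these 4 both lines fell and the parental line fell further. For E2F7 it was -1.55 (-1.75 to -1.36, adjusted p = 4.59e-08) and for RB1 -0.55 (-0.71 to -0.39, adjusted p = 5.19e-05), which rose in the parental line and were not called in the resistant one. E2F4 and E2F5 differed by 0.37 and 0.40, and E2F3 and RBL2 were not called.

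Of the members called in solvent, E2F1, E2F2, E2F8 and RBL1 stood nearer between the lines in cisplatin, and RBL2 slightly so. A549/cDDP against A549 had 5 members higher and 2 lower, where 37% of all genes were higher and 29.5% lower. E2F8, at 1.5 and 1.17 FPKM in the resistant line and 1.33 and 1.04 in the parent, was not called (adjusted p = 0.41), nor was RBL1 (adjusted p = 0.849). E2F1 was higher in the resistant line by 0.35 (adjusted p = 0.000542), E2F2 by 0.82 (adjusted p = 1.14e-05) and E2F5 by 0.75 (adjusted p = 2.11e-06). RBL2 was higher by 0.51 (adjusted p = 1.43e-06) and E2F4 by 0.23 (adjusted p = 0.000312). E2F7 was lower at -1.27 (adjusted p = 3.9e-09) and RB1 at -0.48 (adjusted p = 3.72e-06). The comparisons within and between these 4 groups share libraries and are not independent of each other.

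Knockdown of SCAT7 in the resistant line is read against the control gapmer. In solvent 0 members rose and 6 fell, where 33.2% of all genes rose and 22.7% fell. The activators E2F1 and E2F2, the repressor E2F8 and RBL1 again had the largest changes. E2F1 stood at 20.5 and 19.7 FPKM with the control gapmer and at 6.49 and 6.55 with the SCAT7 gapmer, a change of -1.55 (SE 0.0673, adjusted p = 3.4e-09). E2F2 went from 6.73 and 6.57 to 1.44 and 1.4 FPKM (-1.90, adjusted p = 1.64e-08), and E2F8 from 6.44 and 6.29 to 1.25 and 1.56 (-1.86, adjusted p = 1.77e-07). RBL1 went from 14.6 and 15.4 to 6.56 and 6.07 FPKM (-1.19, adjusted p = 1.22e-08). No library of one gapmer overlapped the other in these 4 genes, but the share of all genes separated this way was not counted.

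E2F4 fell by 0.34 (adjusted p = 2.23e-05), from 91.5 and 92 to 71.8 and 72.7 FPKM. RBL2 was lower at -0.14 (adjusted p = 0.0248), a call that ended without either control gapmer library (adjusted p = 0.0717 and 0.0971) and without SCAT7 gapmer replicate 1 (0.136). E2F3 was at 0.02 (95% interval -0.12 to 0.16) and E2F5 at 0.02 (-0.15 to 0.18), neither called. E2F7 was at -0.15 (adjusted p = 0.0629) and RB1 at -0.09 (adjusted p = 0.154). With median ratio scaling both were called, at -0.23 (adjusted p = 0.0075) and -0.17 (adjusted p = 0.0235), and calls of higher genes went from 59.4% to 49.2% of all calls. No member was called higher with the SCAT7 gapmer under any alternative run for this comparison.

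**Figure D3:**
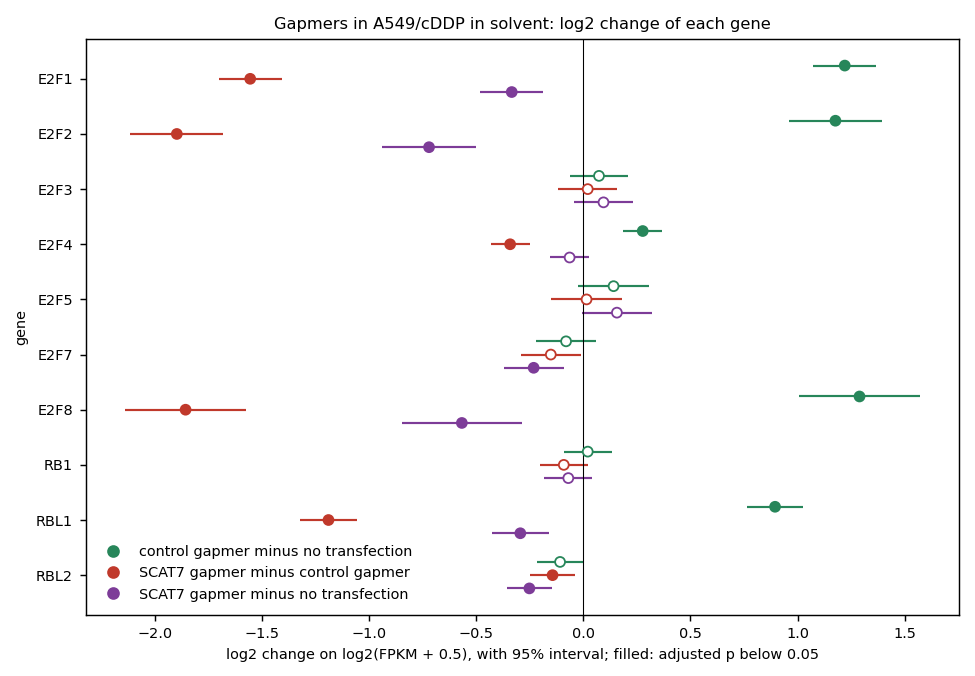
Log2 change of the 10 genes in A549/cDDP in solvent with 95% intervals, for the control gapmer against no transfection, the SCAT7 gapmer against the control gapmer, and the SCAT7 gapmer against no transfection; filled points are called. E2F1 is at 1.22, -1.55 and -0.33 in these comparisons, and E2F2, E2F8 and RBL1 have the same signs.

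In cisplatin the same comparison had 0 members higher and 7 lower, where 28.6% of all genes were higher and 21.1% lower. E2F1 stood at 18.2 in both control gapmer libraries and at 6.83 and 8.02 FPKM with the SCAT7 gapmer, a change of -1.24 (adjusted p = 3.95e-08). E2F2 (-1.43, adjusted p = 3.03e-07), E2F8 (-1.35, adjusted p = 4.21e-06) and RBL1 (-0.99, adjusted p = 1.07e-07) were lower too. E2F4 was lower at -0.36 (adjusted p = 2.25e-05). E2F7 at -0.21 (adjusted p = 0.0164) and RBL2 at -0.16 (adjusted p = 0.0162) were called, and both calls ended without control gapmer replicate 2 (adjusted p = 0.0892 and 0.138) without SCAT7 gapmer replicate 1 (both 0.151), and in a fit of these 4 libraries alone (0.087 and 0.119). The S phase targets were lower in 24 of 24 genes in solvent and in cisplatin, with medians of -1.38 and -1.16. In solvent the dimer partner TFDP1 was lower at -0.76 (adjusted p = 6.4e-08), MYBL2 at -2.15 (adjusted p = 1.4e-09) and the nucleotide salvage gene TK1 at -2.32 (adjusted p = 4.6e-10). CDKN1A rose by 1.22 (adjusted p = 3.1e-11), from 267 FPKM with the control gapmer to 625 with the SCAT7 gapmer. Untransfected A549/cDDP in solvent had 577 FPKM of CDKN1A, nearer to the SCAT7 gapmer than to the control gapmer. Of the 6 epithelial markers 5 were lower and 1 higher in solvent, with summed levels of 6664 to 6964 FPKM with the control gapmer and 5238 to 5325 with the SCAT7 gapmer. Their part and that of the lower depth of the SCAT7 gapmer libraries in these results was not tested.

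The control gapmer libraries themselves stood apart from untransfected A549/cDDP in the same genes. In solvent the control gapmer had 5 members higher and 0 lower, where 20.7% of all genes were higher and 19% lower. E2F1 was higher by 1.22 (adjusted p = 8.2e-08), E2F2 by 1.18 (adjusted p = 2.29e-06), E2F8 by 1.29 (adjusted p = 8.84e-06), RBL1 by 0.90 (adjusted p = 3.7e-07) and E2F4 by 0.28 (adjusted p = 0.000231). In cisplatin there were 5 higher and 1 lower, where 23% of all genes were higher and 19.4% lower, with E2F1 at 1.47 and E2F8 at 1.57. The calls of E2F4 (0.14, adjusted p = 0.0163) and RBL2 (-0.15, adjusted p = 0.0256) there each ended in 3 of the 4 fits without 1 library. E2F4 lost it without untransfected replicate 1 (0.155) and either control gapmer replicate (0.0533 and 0.0839), and RBL2 without either untransfected replicate (0.0832 and 0.0853) and control gapmer replicate 1 (0.196). All 24 S phase targets were higher with the control gapmer than without transfection, in solvent and in cisplatin. CDKN1A was lower with it in solvent, at -1.11 (adjusted p = 1.6e-10). Whether transfection, the reagent or the state of the cells accompanies this shift was not tested, and no library here had the reagent alone.

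The SCAT7 gapmer was therefore also set against untransfected A549/cDDP, a comparison added after the values were seen. In solvent 0 members were higher and 6 lower, where 30.6% of all genes were higher and 22.7% lower, and the changes of E2F1, E2F2, E2F8 and RBL1 were smaller than against the control gapmer. E2F1 was at 6.49 and 6.55 FPKM against 8.66 and 8.05 (-0.33, adjusted p = 0.00125), E2F2 at 1.44 and 1.4 against 2.96 and 2.39 (-0.72, adjusted p = 7.33e-05). E2F8 was lower at -0.57 (adjusted p = 0.00277), RBL1 at -0.29 (adjusted p = 0.00145) and RBL2 at -0.25 (adjusted p = 0.000948). E2F7 was lower at -0.23 (adjusted p = 0.00923), which ended without untransfected solvent replicate 2 (0.0564) or SCAT7 gapmer replicate 2 (0.073). Of the S phase targets 21 were lower and 0 higher.

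In cisplatin, the SCAT7 gapmer against no transfection had 1 member higher and 2 lower, where 28.5% of all genes were higher and 18.9% lower. E2F1, at 6.83 and 8.02 FPKM against 6.39 and 6.09, was higher by 0.23 (adjusted p = 0.0145), a call lost in a fit of these 4 libraries alone (0.171), without untransfected cisplatin replicate 2 (0.0868) or SCAT7 gapmer replicate 2 (0.134) and under median ratio scaling (0.0943). E2F4 was lower at -0.22 (adjusted p = 0.00118, and 0.0648 in a fit of these 4 libraries alone) and RBL2 at -0.31 (adjusted p = 0.000266). E2F2, E2F8 and RBL1 were not called. The S phase targets were 8 higher and 6 lower. In cisplatin, E2F1, E2F2, E2F8 and RBL1 thus stood at -1.43 to -0.99 against the control gapmer on the log2 scale, and none of the 4 was called lower than in untransfected cells. ELF3-AS1, read as SCAT7, was at 2.41 ± 0.00294 FPKM in untransfected cells in cisplatin and at 1.93 ± 0.346 with the SCAT7 gapmer. The target RNA itself thus differed little here, and the part of this in the missing calls was not tested.

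Cisplatin on top of a gapmer changed few members. With the control gapmer 1 member rose and 0 fell, where 1.67% of all genes rose and 0.855% fell. The riser was E2F7, at 11.8 and 12 FPKM in solvent and 15 and 15.4 in cisplatin (0.34, adjusted p = 0.0166), a call that ended when any 1 of the 4 libraries was left out (adjusted p from 0.0898 to 0.149). With the SCAT7 gapmer 1 member rose and 0 fell, where 2.92% of all genes rose and 1.26% fell. It was again E2F7, at 11.1 and 10.3 FPKM in solvent and 12.4 and 13.8 in cisplatin (0.28, adjusted p = 0.0373). That call ended without SCAT7 gapmer solvent replicate 1 (0.113), solvent replicate 2 (0.121) or cisplatin replicate 2 (0.0998), and in a fit of these 4 libraries alone (0.407). Of the S phase targets 2 fell and 1 rose with the control gapmer, and 0 fell and 9 rose with the SCAT7 gapmer, TK1 by 0.36 (adjusted p = 0.026) among them. In the fit of the 4 SCAT7 gapmer libraries alone no gene was called, so all 9 calls are lost there (TK1 adjusted p = 0.395). TK1 also lost its call without solvent replicate 1 (0.171) or cisplatin replicate 2 (0.0579).

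The difference of the cisplatin effects between the gapmers, SCAT7 minus control, was called for 0 members with limma, where 0.488% of all genes were higher and 0.442% lower. The difference was 0.31 for E2F1 (95% interval 0.10 to 0.52, adjusted p = 0.17), 0.46 for E2F2 (0.15 to 0.77, adjusted p = 0.169) and 0.50 for E2F8 (0.10 to 0.90, adjusted p = 0.245). An unadjusted p below 0.05 was reached by 4 members, and over all genes by 2350, of which 160 were called. Without SCAT7 gapmer cisplatin replicate 1, E2F1 was called at 0.42 (adjusted p = 0.0333). The intervals do not show that the effects were alike. Of the 24 S phase targets 5 were called, all higher, among them MCM6 at 0.43 (adjusted p = 0.0047).

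**Figure D4:**
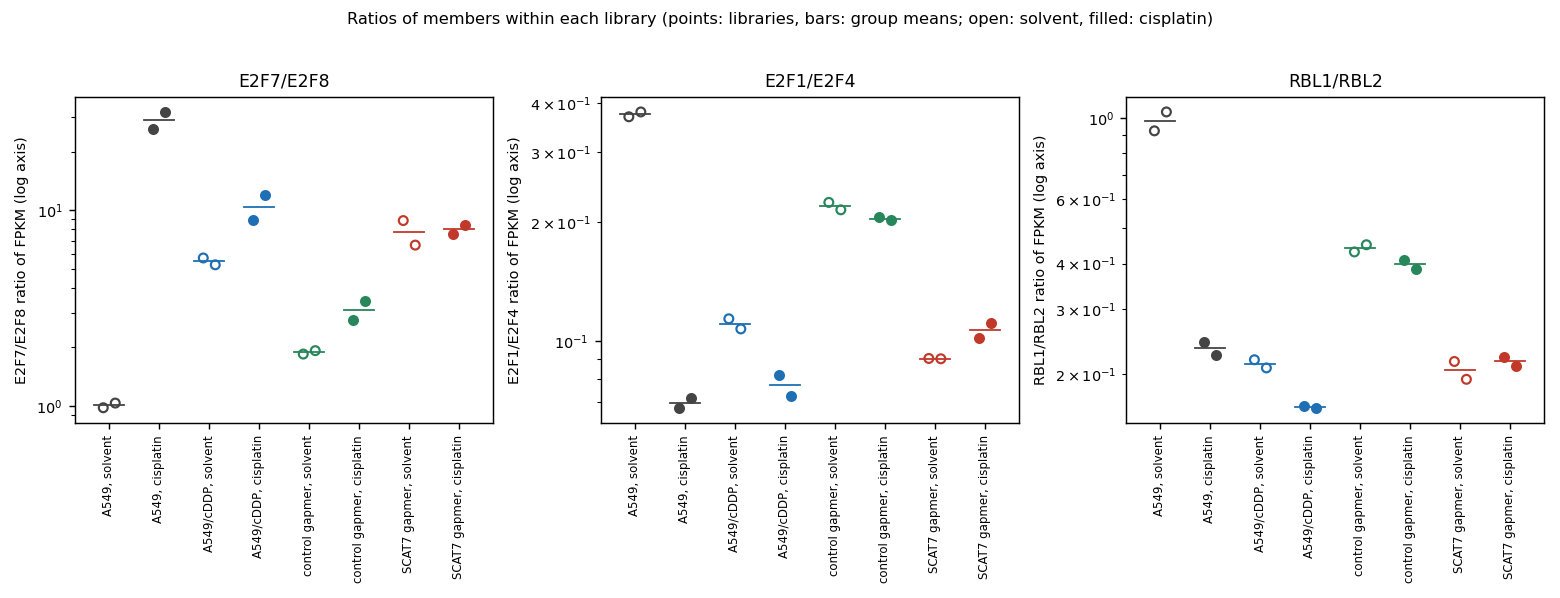
Ratios of FPKM within each library for E2F1 to E2F4, E2F7 to E2F8 and RBL1 to RBL2, on log axes, 1 point per library in 8 groups. E2F7 to E2F8 is near 1 in A549 in solvent and 26 to 31.9 in A549 in cisplatin, with every A549/cDDP library between 1.84 and 12.1.

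Ratios of 2 members within a library need no scaling between libraries. They were taken for an activator against a repressor (E2F1 to E2F4, E2F1 to E2F7), for both atypical repressors and for RBL1 against RBL2. The ratio of E2F1 to E2F4 averaged 0.374 in A549 in solvent and 0.0697 in cisplatin. In A549/cDDP it averaged 0.11 in solvent and 0.0772 in cisplatin without transfection, 0.219 and 0.204 with the control gapmer, and 0.0902 and 0.106 with the SCAT7 gapmer. E2F1 to E2F7 averaged 3.02 in A549 in solvent and 0.142 in cisplatin. In A549/cDDP it averaged 0.66 and 0.455 without transfection, 1.68 and 1.2 with the control gapmer, and 0.61 and 0.566 with the SCAT7 gapmer. E2F7 to E2F8 averaged 5.49 and 10.5 in untransfected A549/cDDP, 1.88 and 3.09 with the control gapmer, and 7.76 and 8.03 with the SCAT7 gapmer. RBL1 to RBL2 averaged 0.213 and 0.163, then 0.441 and 0.399, then 0.205 and 0.217 in the same order. All 4 ratios put the control gapmer groups nearest to A549 in solvent. Each holds E2F1, E2F8 or RBL1, whose levels have that same order, so the 4 ratios are not separate observations. These ratios show unequal change of 2 genes, not which of them changed.

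Over all groups the members differed in how far they moved. The highest group mean was 10.1 times the lowest for E2F2, 8.67 times for E2F8, 6.5 times for E2F1, 3.61 times for RBL1 and 3.28 times for E2F7. It was 1.89 times for E2F5, 1.66 for RBL2, 1.43 for RB1, 1.33 for E2F4 and 1.13 for E2F3. In the order of E2F1 levels, A549 in solvent came first, then the control gapmer in solvent and in cisplatin, untransfected A549/cDDP in solvent, the SCAT7 gapmer in cisplatin and in solvent, untransfected A549/cDDP in cisplatin, and A549 in cisplatin. The groups were sorted by their means, and how often neighbours separate over all genes was not counted. The order is therefore a description. Some steps are small: the SCAT7 gapmer in solvent averaged 6.52 FPKM and untransfected A549/cDDP in cisplatin 6.24.

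The genes with the most similar profile over the 16 libraries, among the 10507 genes whose mean reached 5 FPKM, are given by Pearson's r on the log2 scale as a description. The 16 points fall in 8 groups of 2 and share their depth and treatment. Among E2F1, E2F2, E2F8 and RBL1, the 6 pairs had r from 0.934 to 0.988. E2F1 was nearest to HAT1 (0.994), MCM5 (0.993) and KNTC1 (0.993), E2F2 to LMNB1 (0.991), and RBL1 to MCM7 (0.992). E2F8 was nearest to the cytokinesis kinesin gene KIF23 (0.994), with E2F1 itself also among its 3 nearest (0.988). E2F7 was nearest to NKD2 (0.989), BAX (0.988) and CLP1 (0.983). BAX is a pro-apoptotic gene that p53 is known to induce, and a part of p53 was not tested. E2F7 averaged 33.9 FPKM in A549 in cisplatin and 15.2 in the next highest group, so its r values rest largely on that 1 group. E2F4 was nearest to TGFBI (0.956), E2F5 to SLC15A4 (0.982), RB1 to GPX2 (0.935) and RBL2 to SLC22A17 (0.974). For E2F3, whose values hardly vary, the nearest was SP1 at 0.897.

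By position, in hg38 with GENCODE 29, E2F1 (ENSG00000101412) lies at chr20:33675683-33686404 and RBL1 (ENSG00000080839) at chr20:36996349-37095995, both on the minus strand. E2F2 (ENSG00000007968) lies at chr1:23506430-23531220, E2F8 (ENSG00000129173) at chr11:19224063-19241620 and E2F7 (ENSG00000165891) at chr12:77021247-77065580, all on the minus strand. E2F4 (ENSG00000205250, chr16:67192169-67198918) and RBL2 (ENSG00000103479, chr16:53433977-53491649) share chromosome 16, plus strand. RB1 (ENSG00000139687) lies at chr13:48303726-48599436 and E2F3 (ENSG00000112242) at chr6:20401906-20493715, both on the plus strand. On GENCODE 29 models, 16.4% of E2F5 exon bases are shared with C8orf59 on the opposite strand, which reached 89.1 FPKM, and 8.33% of RBL2 exon bases with AKTIP, which reached 25.5 FPKM. No source used here says whether the counting used strand, so reads in those stretches cannot be told apart. Processed pseudogenes of E2F3 and E2F4 were at most 0.182 FPKM.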

How the data were processed

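RNA of 16 libraries in 8 groups of 2 was selected for poly(A) tails on oligo(dT) beads, as the labels' protocols say. The authors deposited 1 FPKM value per gene and library. Reads were aligned with TopHat2 and counted with HTSeq 0.6.1 on hg38, per the submitters' processing notes. Which annotation and strand setting were used is not given in the sources used here. Symbols and exon models came from GENCODE 29, which held 56868 of 60448 identifiers. Promoter sequences came from RefSeq (GRCh38.p14), which matched 8 of the 10 members. Depth was recovered from low values of up to 6 reads, of which 72.5% to 78.1% per library came out whole (within 0.02 reads of a whole number). Read numbers are therefore approximate, and their precision covers counting error only.

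FPKM was placed on log2(FPKM + 0.5) and genes whose mean reached 0.5 FPKM were kept. One limma 3.58.1 fit (R 4.3.3) with 1 mean per group, 8 residual degrees of freedom and a trended prior gave all comparisons, so the groups share 1 estimate of the spread. The script was tested on simulated data. Alternatives were pseudocounts of 0.1 and 1, filters of none and 2 FPKM, median ratio and quantile scaling, a fit of only the groups compared, a replicate block, and leaving out each library. Replicate numbers do not pair the libraries: over 28 pairs of groups, deviations of same-numbered libraries correlated at -0.187 to 0.119.

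The members and gene lists were chosen with earlier results of these data known, and no list is independent support. All 10 members were named. Of each other list, whole-list counts and up to 4 called genes with the largest change could be named, with every gene of lists of 8 or fewer, CDKN1A, MDM2 and ELF3-AS1 as checks, and the 3 genes most like each member. The 2 comparisons of the SCAT7 gapmer with untransfected cells were added after values were seen.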

Additional observations from a re-analysis of the deposited data

Results flagged for a closer look

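For 8 of the 10 genes the change with cisplatin differed between the lines by limma's test of the difference itself, resistant minus parental on the log2 scale. Over all genes tested 21.5% were higher and 25.6% lower by the same test, so such a difference was common. The genes that fell further in A549 gave positive differences: E2F1 at 2.19, E2F2 at 2.14, E2F8 at 2.06 and RBL1 at 1.46. E2F4 at 0.37 and E2F5 at 0.40 were also called, and both fell in A549 and were not called in A549/cDDP. The genes that rose in A549 gave negative differences, E2F7 at -1.55 and RB1 at -0.55. The 2 lines began at different levels in solvent, and the part of the starting level in these differences was not tested. No difference between the gapmers in the response to cisplatin met the threshold for a member.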

How the results depend on the processing

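No call of a member reversed its direction under any alternative. The fit of only the groups compared lowered the counts of called genes to 417 (members 0) for cisplatin in A549/cDDP, to 270 for cisplatin with the control gapmer, to 0 (members 0) for cisplatin with the SCAT7 gapmer, where limma on all groups had 3876 genes at an unadjusted p below 0.05, and to 10 for the difference between gapmers. For the SCAT7 gapmer against no transfection in cisplatin, it gave 4770 genes and 1 member. Without a filter on low values the difference between gapmers called 262 genes. Fewer libraries or more genes enter these fits, by construction. Leaving out 1 library gave 509 to 1049 genes and 2 to 4 members for cisplatin in A549/cDDP, 137 to 179 and 0 to 0 for cisplatin with the control gapmer, 9 to 1626 and 0 to 1 with the SCAT7 gapmer, 45 to 462 and 0 to 1 for the difference between gapmers, and 2 to 4 members for the SCAT7 gapmer against no transfection in cisplatin. In that last comparison RBBP4 turned to -0.000572 with median ratio scaling (adjusted p = 0.992) and CDKN1A to 0.0279 with quantile normalization (adjusted p = 0.504), and the cause was not tested. The replicate block, for numbers that do not pair the libraries, changed no member's call, with 10 members called for cisplatin in A549 and 1316 genes for cisplatin in A549/cDDP.

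Another scaling moved the share of higher genes among all calls by over 10 points in 7 of the 14 comparisons: A549/cDDP against A549 in solvent (60.8% to 47.4%, median ratio), the SCAT7 gapmer against the control gapmer in solvent (59.4% to 49.2%, median ratio), cisplatin with the control gapmer (66.2% to 53.8%, median ratio) and with the SCAT7 gapmer (69.8% to 59.4%, quantile), the control gapmer against no transfection in cisplatin (54.3% to 43.9%, quantile), and the SCAT7 gapmer against no transfection in solvent (57.4% to 46.7% with median ratio and 43% with quantile) and in cisplatin (60.1% to 45.9% and 42.6%). E2F2 and E2F8 rest on as few as 135 and 158 reads in a library.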

Other observations

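Counted over all 14 comparisons, which share libraries, E2F3 was called in 1 and RB1 in 3, against 11 for E2F1 and 10 for E2F2. Such counts were not made over all genes, so they do not set these members apart. The share of all genes called was largest for A549/cDDP against A549 in solvent, 42.7% higher and 27.5% lower. It was smallest for the difference between gapmers, 0.488% higher and 0.442% lower. LIN37, a MuvB subunit, was called in none of the 14 comparisons, and CCND1, the gene of cyclin D1, was not called with cisplatin in either line, at -0.03 in both (limma adjusted p = 0.44 in A549 and 0.66 in A549/cDDP). CDKN2C differed in its response to cisplatin between the gapmers by 0.85 (limma adjusted p = 0.045), SCAT7 minus control. CDKN1A was called lower in the same comparison. It went from 267 to 448 FPKM with the control gapmer and from 625 to 663 with the SCAT7 gapmer. The fit of only the groups compared called 10 genes for this difference, against 160 in the main fit. ELF3-AS1, read as SCAT7, rose by 2.02 (adjusted p = 3.8e-07) with cisplatin in A549 and also rose with cisplatin under the SCAT7 gapmer (adjusted p = 0.014), from 0.716 to 1.93 FPKM. That last call is lost in a fit of the 4 SCAT7 gapmer libraries alone (adjusted p = 0.395) and without SCAT7 gapmer solvent replicate 1 (0.108).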
